A study of Rattus norvegicus with 12 samples.

Results

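Integrin and laminin subunit genes were followed in skin-derived precursors (SKPs) of newborn Sprague-Dawley rats. SKPs are precursor cells of the dermis that are kept in culture as spheres. The members were the genes whose array row had a single symbol made of Itga or Itgb with a number or a letter, or of Lama, Lamb or Lamc with a digit, with the brightest row where a gene had several. This form of symbol leaves out the platelet alpha subunit gene Itga2b, which was measured as a platelet marker. This gave 31 of 18166 genes, 22 integrins and 9 laminins. Itgav, Itgae, Itgb3 and Lamb1 were not analysed here. Total RNA was measured on 1-colour Affymetrix arrays in 4 groups of 3 arrays, with 3 independent isolates of cells in the study. The replicate numbers 1 to 3 were taken to mark the isolates, which no label states. Dissociated spheres had been cultured for 24 h with 100 nM trimebutine maleate and 100 nM trametinib together (the combination), with 100 nM alprostadil, with 100 nM trimebutine maleate, or with vehicle. All groups shared a medium with FGF2, EGF and B27. Trametinib blocks the kinase MEK, which acts on ERK, alprostadil is a synthetic prostaglandin, and trimebutine acts on gut motility. Trametinib alone was not analysed here, so its addition was read against trimebutine.

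Integrins are receptors made of 1 alpha and 1 beta subunit that join the cell's cytoskeleton to the matrix outside it. The alpha subunit largely sets which ligand is bound: collagens, laminins, or proteins such as fibronectin that carry the RGD tripeptide. Laminins are trimers of an alpha, a beta and a gamma chain that build basement membranes, and several integrins are their receptors. In skin, integrins and laminins hold keratinocytes to the basement membrane and dermal cells to collagen and fibronectin. The roles given below are known mainly from human and mouse proteins.

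Values are log2 expression values normalized by the authors, and differences are differences of mean log2 values with their standard error (SE), n = 3 arrays per group. A gene was called higher or lower at an adjusted p under 0.05 by limma over 13636 genes. The array medians lay between 6.409 and 6.505. Levels of different genes cannot be compared on this array, so each gene is compared only with itself. Of the 31 members, 29 passed the low-signal limit of 5.83, and the means of Itgb7 (5.81) and Lamb3 (5.53) lay under it. Itgb6 was at or above the limit in 9 of 12 arrays and each other tested member in all 12. All 12 dermal fibroblast and precursor markers on the array passed this limit, while 5 of 9 keratinocyte markers and 5 of 7 endothelial markers did, with array means from 5.59 to 5.81 for the keratinocyte list and 5.83 to 6.10 for the endothelial list. Epcam, also on the keratinocyte list, averaged 3.41, under this limit. The 5 keratinocyte markers that passed averaged from 5.91 (Krt1) to 6.31 (Cdh1 and Krt10). The array medians of that list lay between 5.77 and 6.03. All 10 genes of MEK and ERK output and all 10 proliferation genes were lower in the combination than with trimebutine. Their median differences were −0.82 and −2.38, and 16.6% of all genes tested were lower. These lists were chosen with earlier results of these data known, so they are no independent check of the drug. The part of lower proliferation in the integrin and laminin values was not tested.

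The RefSeq table of promoters (build GRCr8) held 24 of the 31 members. The promoters of 4 members that changed when trametinib was added are shown because they hold the motifs searched or belong to the genes with the largest fall and rise among those 24. Each runs from 250 bases before to 50 bases after the gene's start, 5′ to 3′, and capitals mark motif matches on either strand. They comprise the AP-1 motif TGANTCA in Lama3, the ETS motif CCGGAAG and the TEAD motif GGAATG in Itga3, and the GC box GGGCGG in Itga2, Itga3 and Itga9. None of the matches in these 4 sequences overlapped another motif.
Lama3 promoter, chr18:3952517-3952816, plus strand: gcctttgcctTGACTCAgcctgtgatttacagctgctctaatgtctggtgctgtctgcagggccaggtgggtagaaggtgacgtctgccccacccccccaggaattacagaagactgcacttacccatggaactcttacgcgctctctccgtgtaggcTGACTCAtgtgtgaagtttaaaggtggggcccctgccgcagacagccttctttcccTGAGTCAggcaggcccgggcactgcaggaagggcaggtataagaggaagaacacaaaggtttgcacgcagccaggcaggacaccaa
Itga3 promoter, chr10:80518852-80519151, minus strand: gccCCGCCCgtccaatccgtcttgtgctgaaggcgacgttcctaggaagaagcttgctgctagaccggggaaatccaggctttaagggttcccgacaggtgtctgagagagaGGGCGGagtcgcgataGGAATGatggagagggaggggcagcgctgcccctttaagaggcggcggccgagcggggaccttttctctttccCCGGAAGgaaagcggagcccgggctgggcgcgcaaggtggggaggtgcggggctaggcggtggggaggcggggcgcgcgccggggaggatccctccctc
Itga2 promoter, chr2:48354460-48354759, minus strand: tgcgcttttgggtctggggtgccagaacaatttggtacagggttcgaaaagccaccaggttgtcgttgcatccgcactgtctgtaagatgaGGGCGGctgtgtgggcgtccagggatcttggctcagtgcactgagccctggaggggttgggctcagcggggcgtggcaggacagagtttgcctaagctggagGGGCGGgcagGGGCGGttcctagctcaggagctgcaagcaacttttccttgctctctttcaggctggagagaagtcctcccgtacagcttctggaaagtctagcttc
Itga9 promoter, chr8:127185039-127185338, plus strand: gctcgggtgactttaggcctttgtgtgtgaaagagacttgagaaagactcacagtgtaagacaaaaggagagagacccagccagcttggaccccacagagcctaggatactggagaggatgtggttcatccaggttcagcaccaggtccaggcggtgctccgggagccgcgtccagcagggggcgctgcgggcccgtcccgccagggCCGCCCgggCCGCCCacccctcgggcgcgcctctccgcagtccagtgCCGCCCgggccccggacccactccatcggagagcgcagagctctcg

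The addition of trametinib to trimebutine was compared to see which of these adhesion genes change when MEK is inhibited in cells that also receive trimebutine. The largest falls were those of the collagen receptor gene Itga2, the laminin receptor gene Itga6 and the RGD receptor gene Itga8, and the largest rise was that of Itga9. Among the laminins the alpha chain gene Lama4 rose and the alpha chain genes Lama2 and Lama3 fell. In all, 9 of 29 tested members fell, 6 rose and 14 did not pass. Over all genes tested, 16.6% fell and 16.8% rose, 33.4% together, beside 51.7% of the members. The groups did not overlap for 9 members that lay lower and 7 that lay higher with the combination, beside 21.8% and 24% of all genes. The members' differences had a median of −0.01 and a median size of 0.32, beside 0.03 and 0.16 over all genes. Of the 15 integrin alpha genes, 7 fell and 2 rose. Of 6 integrin beta genes none passed in this fit, while 2 rose with the replicate number as a block. Of 8 laminins 4 rose and 2 fell.

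**Figure D1:**
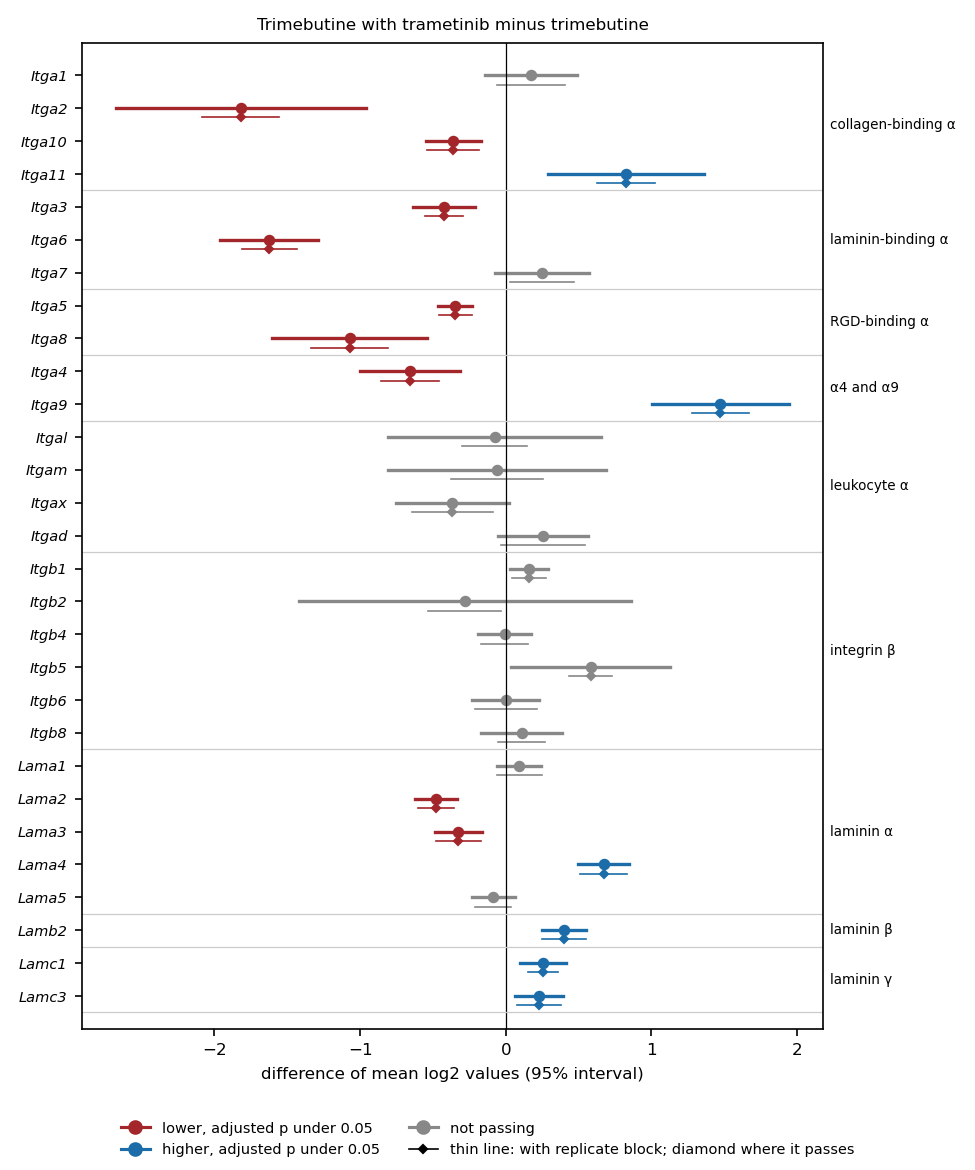
Differences of mean log2 values, trimebutine with trametinib minus trimebutine, for the 29 tested members grouped by role; thick lines are 95% intervals of the fit and thin lines those with the replicate number as a block (n = 3 arrays per group). Itga2, Itga6 and Itga8 lie farthest to the left and Itga9 farthest to the right, while no integrin beta gene is coloured as passing. Colours follow the fit without the block.

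The 4 collagen receptor alpha genes did not move together. Itga2, which encodes the alpha subunit of the collagen receptor of platelets and epithelia, had 9.21, 8.66 and 7.86 with the combination, against 10.61, 10.79 and 9.79 with trimebutine and 10.73, 10.86 and 9.83 with vehicle. The combination arrays lay below all other arrays, and replicate number 3 was the lowest within every group. Itga2 fell by 1.82 (SE 0.39, adjusted p = 0.00380), a 3.53-fold change. Itga11, the fibroblast collagen receptor gene, had 6.55, 7.13 and 7.50 with the combination, against 5.97, 6.14 and 6.58 with trimebutine and 6.04, 6.12 and 6.58 with vehicle. Its groups overlapped by 1 array, since replicate number 1 of the combination lay under replicate number 3 of trimebutine, but within each replicate number the combination was higher. Itga11 rose by 0.83 (SE 0.24, adjusted p = 0.0214, and adjusted p = 2.59e-05 with the replicate number as a block). Without the block it did not pass when trimebutine replicate 1 or 2 or combination replicate 2 or 3 was left out (adjusted p up to 0.0831). Itga10, a collagen receptor gene known from cartilage, had 6.79, 6.58 and 6.73 with the combination, against 6.93, 7.17 and 7.08 with trimebutine, and fell by 0.36 (SE 0.09, adjusted p = 0.00713). Itga1, whose subunit binds collagen IV in particular, differed by 0.17 (adjusted p = 0.402), with combination replicate 3 at 8.72 and the other 11 arrays between 7.96 and 8.31.

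Of the 3 laminin receptor alpha genes, 2 fell. Itga6, whose subunit joins the beta subunit of Itgb4 in the hemidesmosomes of keratinocytes and that of Itgb1 elsewhere, had 7.34, 7.76 and 7.99 with the combination, against 9.19, 9.31 and 9.46 with trimebutine and 9.25, 9.23 and 9.46 with vehicle. Every combination array lay more than 1 log2 unit under every trimebutine and vehicle array. Itga6 fell by 1.62 (SE 0.15, adjusted p = 1.04e-05), a 3.08-fold change and the smallest p among the members. Itga3, which encodes another laminin receptor subunit of skin, had 6.83, 6.94 and 6.74 with the combination, against 7.19, 7.47 and 7.13 with trimebutine, and fell by 0.42 (SE 0.10, adjusted p = 0.00592). Itga7, the laminin receptor gene of muscle, differed by 0.25 (adjusted p = 0.222). Itgb4, the partner of Itga6 in hemidesmosomes, differed by −0.01 (adjusted p = 0.955), with all 12 arrays between 6.38 and 6.66.

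The RGD receptor alpha genes among the members, Itga5 and Itga8, fell. Itga2b, an RGD receptor gene that is not a member, differed by 0.22 (SE 0.10, adjusted p = 0.103, and adjusted p = 0.0341 with the replicate number as a block). Itga8, whose subunit binds fibronectin and nephronectin and is found on mesenchymal cells, had 8.02, 8.21 and 8.52 with the combination, against 9.18, 9.02 and 9.75 with trimebutine and 9.35, 8.85 and 9.71 with vehicle. It fell by 1.07 (SE 0.24, adjusted p = 0.00515). Itga5, the classical fibronectin receptor gene, had 10.60, 10.72 and 10.71 with the combination, against 11.04, 11.01 and 11.02 with trimebutine. The groups were apart although the change was small, at −0.35 (SE 0.05, adjusted p = 0.000348). Fn1, which encodes their ligand fibronectin, differed by 0.05 (adjusted p = 0.531).

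The related alpha genes Itga4 and Itga9, whose subunits share ligands such as VCAM1, tenascin and osteopontin, went in opposite directions. Itga9 had 7.98, 8.23 and 8.80 with the combination, against 6.58, 6.95 and 7.05 with trimebutine and 6.63 to 7.05 with vehicle. It rose by 1.47 (SE 0.21, adjusted p = 0.000266), a 2.78-fold change, and was higher in all 3 replicate numbers. Itga4 had 9.22, 9.29 and 9.66 with the combination, against 10.06, 9.88 and 10.19 with trimebutine and 10.17, 9.76 and 10.32 with vehicle. It fell by 0.66 (SE 0.16, adjusted p = 0.00701), with no overlap of the groups. Of their ligands, the osteopontin gene Spp1 fell by 1.95 (SE 0.22, adjusted p = 4.14e-05), and Vcam1 differed by −0.02 (adjusted p = 0.934).

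**Figure D2:**
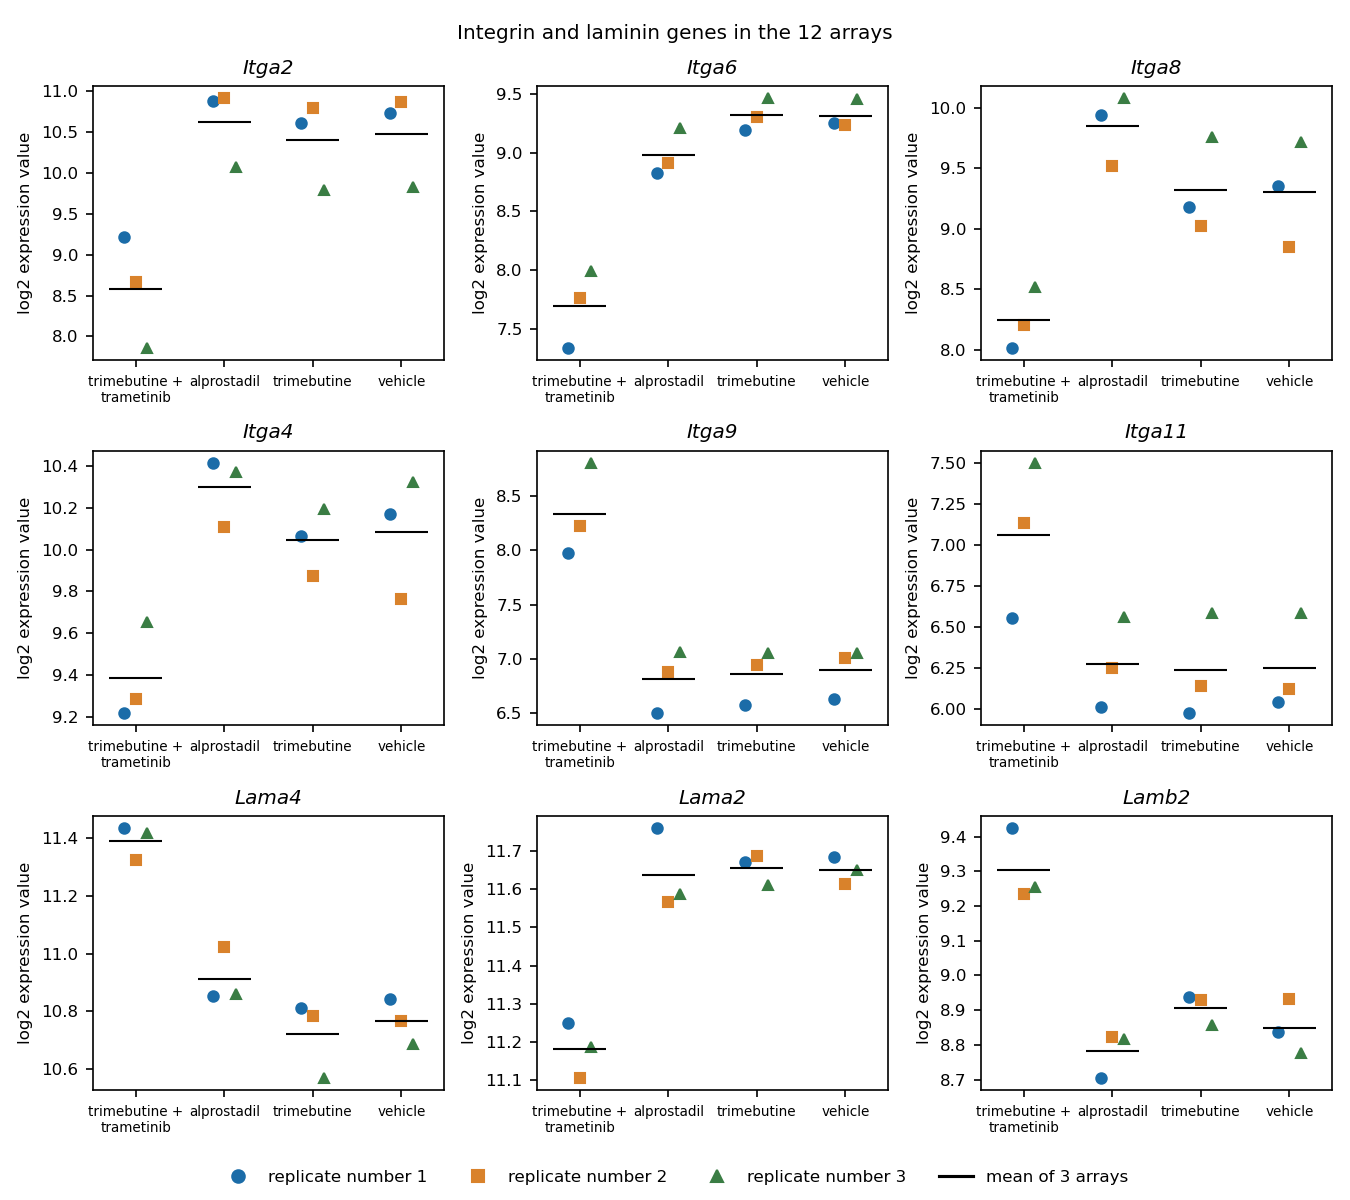
Log2 expression values of 6 integrin and 3 laminin genes in each of the 12 arrays, by group, with the mean of 3 arrays as a bar and the replicate number as colour and shape; each panel has its own axis, which does not start at 0. Itga2, Itga6, Itga8, Itga4 and Lama2 are lowest with the combination and Itga9, Itga11, Lama4 and Lamb2 highest, and the trimebutine and vehicle means lie close to each other.

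Laminin chain genes changed by less than 1 log2 unit. Lama4, which encodes the alpha chain of vessel and mesenchymal laminins, had 11.43, 11.32 and 11.42 with the combination, against 10.81, 10.78 and 10.57 with trimebutine and 10.84, 10.77 and 10.69 with vehicle. It rose by 0.67 (SE 0.08, adjusted p = 5.48e-05). A second row for Lama4 differed by 0.82. Lama2, the alpha chain gene of muscle and peripheral nerve laminin, had 11.25, 11.11 and 11.19 with the combination, against 11.67, 11.69 and 11.61 with trimebutine and 11.69, 11.61 and 11.65 with vehicle. It fell by 0.48 (SE 0.07, adjusted p = 0.000172), so the 2 alpha chain genes moved in opposite directions. Lama3, whose chain belongs to the epidermal laminin under keratinocytes, had 6.61, 6.83 and 6.78 with the combination, against 6.97, 7.18 and 7.03 with trimebutine. It fell by 0.32 (SE 0.07, adjusted p = 0.00522). Its epidermal partner Lamb3 was not tested, with values from 5.23 to 5.85 in the 12 arrays. Lama1, an early embryonic alpha chain gene, differed by 0.09 (adjusted p = 0.337), and Lama5, the alpha chain gene of most mature basement membranes, by −0.09 (adjusted p = 0.363).

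The laminin beta and gamma chain genes that were tested all rose. Lamb2 had 9.42, 9.24 and 9.26 with the combination, against 8.94, 8.93 and 8.86 with trimebutine, and rose by 0.40 (SE 0.07, adjusted p = 0.000912). Lamc1, the gamma chain gene of most laminins, had 11.63, 11.55 and 11.42 with the combination, against 11.34, 11.30 and 11.19 with trimebutine. These groups did not overlap, and Lamc1 rose by 0.26 (SE 0.07, adjusted p = 0.0159). Lamc3 had 6.85, 6.65 and 6.60 with the combination, against 6.49, 6.40 and 6.53 with trimebutine, and rose by 0.23 (SE 0.08, adjusted p = 0.0373). The last 2 calls were the least firm. Lamc1 did not pass without trimebutine replicate 3 or combination replicate 1 or 2 (adjusted p up to 0.0632), and Lamc3 did not pass without trimebutine replicate 1 or 2 or combination replicate 1 or 2 (adjusted p up to 0.141).

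No integrin beta gene passed without the block, and Itgb1 and Itgb5 passed with it. Itgb1, the common partner of most alpha subunits named here, had 12.54, 12.45 and 12.50 with the combination, against 12.29, 12.33 and 12.39 with trimebutine. The groups did not overlap, at a difference of 0.16 (SE 0.06, adjusted p = 0.0616), and it rose with the replicate number as a block (adjusted p = 0.0340). Itgb5, whose subunit forms a vitronectin receptor, had 9.95, 10.36 and 10.43 with the combination, against 9.28, 9.80 and 9.91 with trimebutine. Its difference was 0.58 (SE 0.25, adjusted p = 0.0945), and with the block it rose (SE 0.07, adjusted p = 4.16e-05), since replicate number 1 was lowest in every group. Itgb6 and Itgb8, whose subunits take part in activating latent TGF-beta, differed by 0.0002 (adjusted p = 0.999) and 0.11 (adjusted p = 0.552). Itgb7, a lymphocyte integrin gene, was not tested. With the block, 10 of the 29 members fell and 8 rose, beside 20.8% and 21.2% of all genes (42% together).

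The leukocyte integrin genes Itgb2, Itgal and Itgam differed more between replicate numbers than between drugs. Itgb2, the beta subunit gene shared by leukocyte integrins, had 6.96, 7.85 and 8.15 with the combination, against 7.12, 7.93 and 8.75 with trimebutine and 7.24, 7.71 and 8.69 with vehicle. Over the 4 groups it lay between 6.96 and 7.24 in replicate number 1, between 7.71 and 7.93 in number 2 and between 8.15 and 8.75 in number 3. Its difference between the combination and trimebutine was −0.28, with an SE of 0.52 that shrank to 0.11 with the block. Itgal and Itgam, the alpha subunit genes of the lymphocyte and macrophage integrins, were likewise lowest in number 1 (6.63 to 6.95 and 6.60 to 6.88) and highest in number 3 for Itgal (7.53 to 7.90), while Itgam in numbers 2 and 3 overlapped (7.03 to 7.47 and 7.20 to 8.11). Neither passed in any comparison, with or without the block.

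By their mean, the leukocyte markers of the same arrays were also lowest in replicate number 1 and highest in number 3. The mean of 17 macrophage and leukocyte markers lay between 7.31 and 7.51 in replicate number 1, between 7.89 and 8.07 in number 2 and between 8.29 and 8.64 in number 3, and 16 of the 17 were above the low-signal limit in every array. By group it ranged from 7.35 to 8.29 with the combination, from 7.44 to 8.55 with trimebutine and from 7.51 to 8.54 with vehicle. The array medians of this list were 7.27, 7.93 and 7.89 with the combination, so number 3 was not the highest there. They were 7.02, 7.63 and 8.62 with trimebutine and 7.04, 7.52 and 8.52 with vehicle. Of 16 tested markers C1qa rose and Cd68 fell with the combination against trimebutine (12.5%, beside 33.4% of all genes). With the block 4 rose (C1qa, C1qb, C1qc and Csf1r) and 3 fell (Cd68, Cd14 and Ptprc). Over all genes 21.2% rose and 20.8% fell with the block (42% together). In RNA of whole cultures, fewer cells of a type and less RNA per cell cannot be told apart, and the part of these markers in the integrin values was not tested. Itgax, a dendritic cell and macrophage integrin gene, differed by −0.37 (adjusted p = 0.138) and fell with the block (adjusted p = 0.0364), and Itgad, a gene of the same family, by 0.26 (adjusted p = 0.189). Itga2 had the reverse pattern, with replicate number 3 between 7.86 and 10.07 and below the other 2 numbers in each group.

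**Figure D3:**
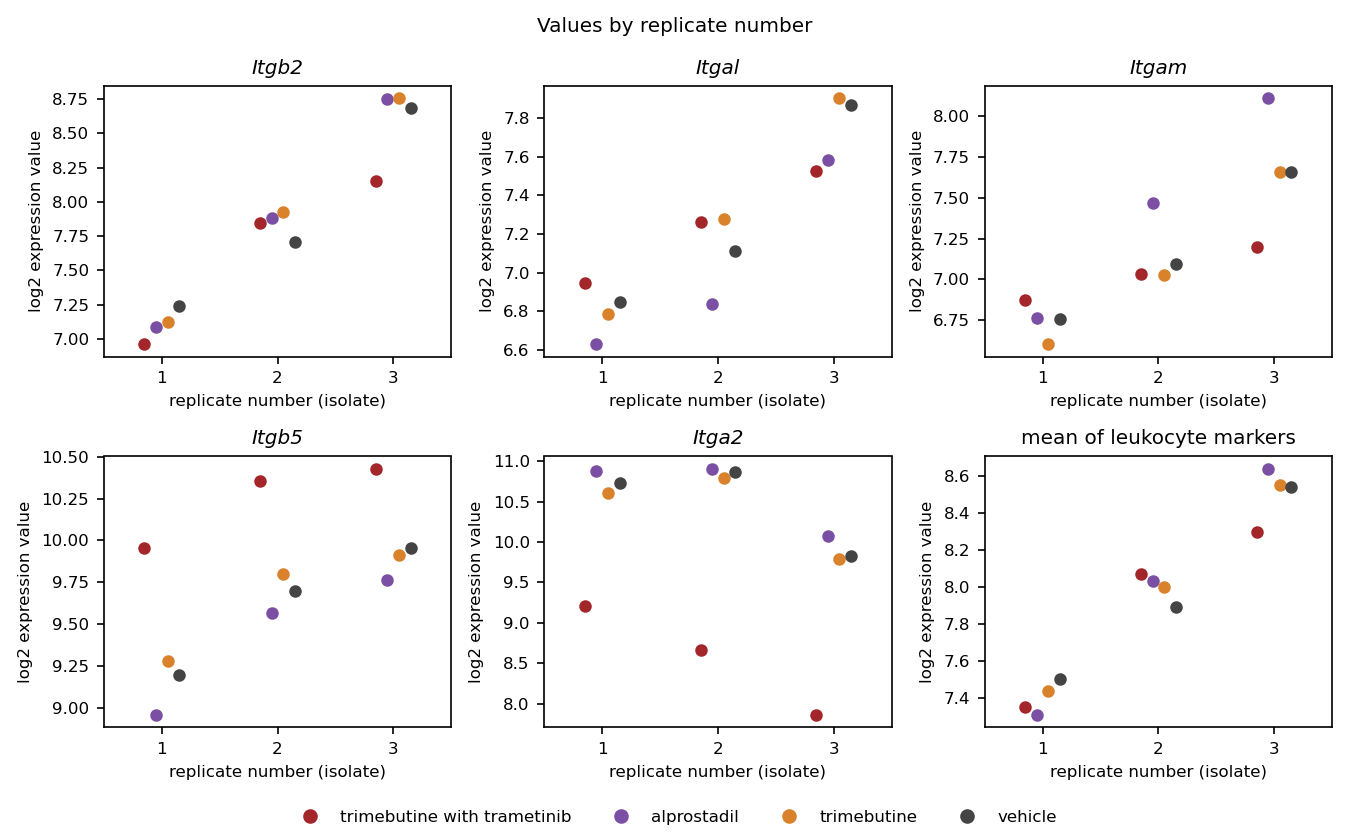
Log2 expression values of 5 integrin genes, and the mean of 17 macrophage and leukocyte markers, in each of the 12 arrays by replicate number, which was taken to mark the isolate though no label states it, with the 4 groups in colour; the axes do not start at 0. Itgb2 and the marker mean are lowest in number 1 and highest in number 3 in all 4 groups, while Itga2 is lowest in number 3 and Itgb5 lowest in number 1.

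Against vehicle, the combination gave nearly the same values, and the combination arrays are shared between these comparisons. Itga2 fell by 1.90 (SE 0.39, adjusted p = 0.00288), Itga6 fell by 1.62 (SE 0.15, adjusted p = 1.06e-05) and Itga8 fell by 1.06 (SE 0.24, adjusted p = 0.00543). Itga9 rose by 1.44 (SE 0.21, adjusted p = 0.000309) and Lama4 by 0.63 (SE 0.08, adjusted p = 8.95e-05). In all 9 members fell and 5 rose, beside 17.5% of all genes in each direction and 35% together. With the block 9 fell and 7 rose, beside 21.1% and 22.1% of all genes (43.2% together), where Itgb5 (adjusted p = 2.28e-05) and Itgb1 (adjusted p = 0.0436) joined the rises. The groups did not overlap for 10 members that lay lower and 6 that lay higher, beside 22.3% and 24.9% of all genes. Itga3 (−0.38), Itga4 (−0.70), Itga5 (−0.30), Itga10 (−0.27), Lama2 (−0.47) and Lama3 (−0.42) were the others that fell, and Itga11 (0.81), Lamb2 (0.46) and Lamc1 (0.25) the others that rose. Lamc3 differed by 0.15 and did not pass (adjusted p = 0.163). Itga10 did not pass without vehicle replicate 3 or combination replicate 2 (adjusted p up to 0.112). The call of Itga11 was lost without combination replicate 2 or 3 or vehicle replicate 1 or 2 (adjusted p up to 0.0859), and that of Lamc1 without vehicle replicate 3 or combination replicate 1 or 2 (adjusted p up to 0.0654). Among the 4 groups together, 14 of 29 members differed by limma's F test (32.5% of all genes), and with the block Itgb5 (adjusted p = 1.33e-05) and Itgb8 (adjusted p = 0.0162) did too. The share of all genes in the F test with the block is not given here.

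Alprostadil was compared with vehicle to see whether a prostaglandin drug changes these genes. No member passed (0 of 29, beside 0.389% of all genes by limma, 0.323% higher and 0.066% lower), and 3 members had an unadjusted p under 0.05, beside 950 of the 13636 genes. With the replicate number as a block also 0 of 29 passed, beside 1.88% of all genes (1.17% higher and 0.711% lower), and 9 had an unadjusted p under 0.05, beside 1800 of the 13636 genes. The groups did not overlap for 2 members that lay higher (Itga1 and Lama4) and 3 that lay lower (Lama3, Itga5 and Itga6), beside 5.41% and 6.19% of all genes. Itga8 had 9.94, 9.52 and 10.07 with alprostadil, against 9.35, 8.85 and 9.71 with vehicle. The groups overlapped but each replicate number was higher with alprostadil, at a difference of 0.54 (SE 0.24, adjusted p = 0.713, and adjusted p = 0.0516 with the block). Itga6 had 8.83, 8.91 and 9.21 with alprostadil, against 9.25, 9.23 and 9.46 with vehicle, with no overlap and a difference of −0.33 (SE 0.15, adjusted p = 0.721, and adjusted p = 0.0888 with the block). Lama3 had 6.95, 6.88 and 6.94 with alprostadil, against 7.20, 7.17 and 7.11 with vehicle. It had the smallest p of the members without the block, where Itga8 had it with the block, at a difference of −0.23 (SE 0.07, adjusted p = 0.391, and adjusted p = 0.148 with the block). Itga5 differed by −0.13 (SE 0.05, adjusted p = 0.639). With the block, the 95% intervals of the 29 members lay between −0.52 (Itga6) and 0.80 (Itga8), and without it between −1.11 and 1.17 (both Itgb2).

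Trimebutine alone was compared with vehicle at the same dose and time. No member passed (0 of 29, and 0% of all genes, by limma), and none had an unadjusted p under 0.05, also with the block, beside 143 of all genes without it and 252 with it. The groups did not overlap for Itga5, which lay higher with trimebutine (difference 0.05), and Lamc3, which lay lower (difference −0.08), beside 2.17% and 2.06% of all genes. The differences of the 29 members lay between −0.10 and 0.09. Itga2 had 10.61, 10.79 and 9.79 with trimebutine, against 10.73, 10.86 and 9.83 with vehicle. Within each replicate number these values lay close together, and number 3 was about 1 log2 unit below the other 2 in both groups. Lama3 had the smallest p, at −0.10 (SE 0.07, adjusted p = 1.00). With the block, the 95% intervals lay between −0.39 (Itgam) and 0.35 (Itgax). Without it they lay between −1.08 and 1.20 (both Itgb2), so the fit without the block left wide bounds on Itgb2. Its SE was 0.52 without the block and 0.11 with it.

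**Figure D4:**
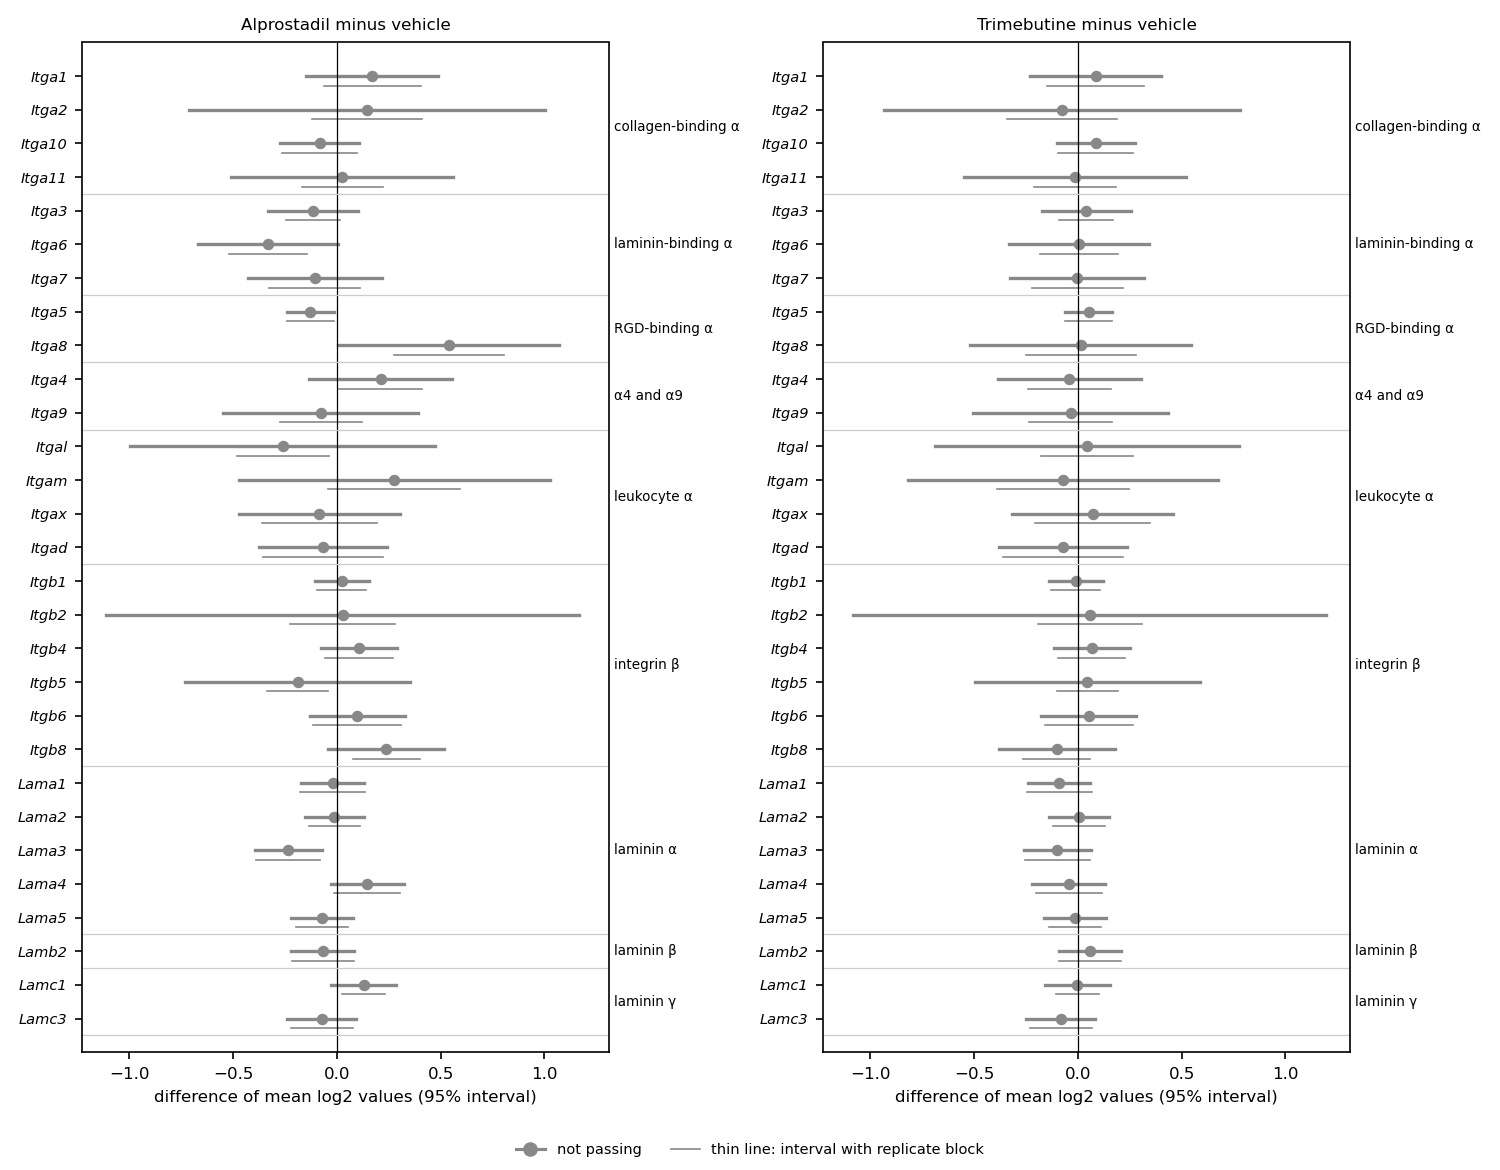
Differences of mean log2 values for the 29 tested members, alprostadil minus vehicle on the left and trimebutine minus vehicle on the right, with 95% intervals (thick lines) and intervals with the replicate number as a block (thin lines); both comparisons share the vehicle arrays. No member passed in either; Itga8 at 0.54 and Itga6 at −0.33 lie farthest from 0 for alprostadil, and all trimebutine values lie between −0.10 and 0.09.

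Genes that work with integrins changed too when trametinib was added. Of 30 tested genes of the adhesion machinery inside the cell, 15 rose and 3 fell (17 and 5 with the block), with a median of 0.20 (0.03 over all genes, of which 16.8% rose and 16.6% fell). With the block, 21.2% of all genes rose and 20.8% fell. Nedd9, which encodes an adhesion scaffold of the Cas family, rose by 1.75 (SE 0.23, adjusted p = 0.000119), Tgfb1i1, the gene of the paxillin relative Hic-5, by 0.92 (SE 0.07, adjusted p = 1.44e-06) and the tensin gene Tns1 by 0.87 (SE 0.16, adjusted p = 0.00124). The genes that fell were Parvb (−2.09, SE 0.18, adjusted p = 6.15e-06), a partner of the integrin-linked kinase, and, named after their values were seen, the paxillin gene Pxn (−0.86) and the alpha-actinin gene Actn4 (−0.23). The kinase genes Ptk2 (0.08, adjusted p = 0.368) and Ilk (0.004, adjusted p = 0.962) and the talin gene Tln1 (0.18, adjusted p = 0.0807, and adjusted p = 0.0374 with the block), also named after the values were seen, did not pass without the block.

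Among 14 tested integrin ligands outside the laminin family, 6 rose (42.9%) and 1 fell (7.14%), with a median of 0.13. Over all genes 16.8% rose and 16.6% fell. The fall was that of Spp1, and with the block Mfge8 and Edil3 fell too. The matrix genes Tgfbi (1.53), Ccn2 (1.49) and Fbn1 (1.21), whose proteins carry integrin-binding sites, were the largest rises. Among 19 basement membrane partners and other laminin receptors, 6 rose (31.6%) and 4 fell (21.1%), with a median of −0.01. With the block 6 rose and 5 fell, beside 21.2% and 20.8% of all genes. The laminin-related netrin genes parted, with Ntn4 rising by 1.49 (SE 0.10, adjusted p = 6.44e-07) while Ntn1 fell by 1.83 (SE 0.11, adjusted p = 4.11e-07). Bmp1 (0.86), a protease gene whose product trims laminin and collagen chains, rose, and the sarcoglycan gene Sgcb (−0.85) fell. The dystroglycan gene Dag1, which encodes a laminin receptor that is no integrin, was named after its value was seen and rose by 0.23 (SE 0.05, adjusted p = 0.00772). With alprostadil and with trimebutine, no gene of these 3 lists passed by limma. With the block, Vcl, Ccn2 and Ntn4, 1 gene of each list, fell with alprostadil (adjusted p = 0.00607, 0.000999 and 0.0176). Over all genes 0.711% fell and 1.17% rose with alprostadil in that fit.

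Markers of the culture's own cells moved with the same comparison. Of 12 dermal markers, 6 rose and 3 fell with the combination against trimebutine, beside 16.8% and 16.6% of all genes. Their array means were at least 11.93 with the combination, against at most 11.78 with trimebutine. Of 5 smooth muscle and myofibroblast markers, Tagln (2.37) and Myl9 (1.19) rose, and Des (−0.34), Mylk (0.07) and Myh11 (0.02) did not pass. The array means of this list were 8.26 to 8.39 with the combination, against 7.62 to 7.69 with trimebutine, while its array medians overlapped, at 6.82 to 7.07 with the combination, against 6.90 to 7.61 with trimebutine. No Schwann, platelet, keratinocyte or endothelial marker passed in the 4 comparisons by limma without the block. With the block, 21.2% of all genes rose and 20.8% fell with the combination against trimebutine, and 22.1% and 21.1% against vehicle. Of 6 tested Schwann markers, S100b rose in both comparisons with the block, and Gfap fell against trimebutine. Of the 4 tested platelet markers, Ppbp rose in both of these comparisons and Itga2b rose against trimebutine. Pf4 rose with alprostadil against vehicle, where 1.17% of all genes rose with the block. The part of these markers in the integrin and laminin values was not tested.

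Motif matches in the promoters did not line up with one direction. The AP-1 motif TGANTCA was found in 1 of 8 promoters of members that fell with the combination against trimebutine (Lama3, with 3 matches), in 0 of 5 of members that rose, and in 1 of 9 of those that did not pass, against 7.33% of 27457 promoters. The ETS motif CCGGAAG was found in 1, 0 and 0 of them (9.22% of all promoters), the TEAD motif GGAATG in 3, 1 and 2 (13.9%), and the GC box GGGCGG in 4, 4 and 4 (34.9%). The cyclic AMP response element TGACGTCA was found in none of these 22 promoters (1.91%), and in that of Lamb3. These counts describe letters in 1 window per gene and were not tested.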

How the data were processed

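Biotin-labelled RNA of 12 SKP cultures was measured on the Rat Gene 2.0 ST array of Affymetrix, per the labels. The deposited log2 values come from the authors' use of oligo with RMA, per the submitters' processing notes, and no source used here gives versions or settings. RMA gives all arrays a common distribution, which hides any change in the total RNA of a cell. Depth does not apply to arrays, and the number of arrays limits the precision.

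Sample titles gave the group and replicate number. Of 36685 features, 18511 had 1 symbol in the platform annotation, brought up to date by Entrez identifier against the gene table of GRCr8 (18394 matched). The brightest feature per symbol gave 18166 genes. Those with a mean at or above the 25th percentile, 5.83, were tested (13636). One limma model (limma 3.58.1, R 4.3.3) with a mean per group was fitted to all 12 arrays (8 residual degrees of freedom), two-sided, with Benjamini-Hochberg adjustment per comparison. The steps were tested on simulated data.

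The replicate number as a block was an alternative (6 residual degrees of freedom). Deviations from the group means were correlated between arrays: r was 0.21 to 0.81 in the 18 same-numbered pairs and −0.71 to 0.10 in the other 36 pairs. On this basis same-numbered arrays were treated as paired in the block fit only. Calls given without mention of the block come from the fit without it, which ignores this pairing. The other alternatives were no filter, a stricter filter, array medians, the mean of a symbol's features, 2 groups only, an intensity trend and each array left out. The members and lists were chosen with earlier results of these data known. All members are named, those that passed with their values, and from each pathway list up to 4 genes with the largest differences among those that passed. Promoters came from the RefSeq table of GRCr8. Array coordinates are not given, since no source names the build of that annotation. The p-values reflect the spread between cultures, which may share an isolate.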

Additional observations from a re-analysis of the deposited data

How the results depend on the processing

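With each array left out in turn, between 3 and 6 members rose with the combination against trimebutine (6 with all arrays) and 9 fell in every run. The lowest count was that without combination replicate 2. Against vehicle, 3 to 6 rose (5 with all arrays) and 8 to 9 fell (9), and the F test called 11 to 14 (14). No member passed for alprostadil or trimebutine in any run. The same runs with the replicate number as a block, added after the data were seen, gave 6 to 9 rising and 9 to 11 falling against trimebutine, and 6 to 8 rising and 8 to 10 falling against vehicle. For the runs with an array left out, with or without the block, the shares of all genes are not given here. Their counts are therefore not read as a result about the members. With the block and all arrays, 8 rose and 10 fell against trimebutine, where Itgb1, Itgb5 and Itgax joined the members that passed, and 7 rose and 9 fell against vehicle, where Itgb1 and Itgb5 did. The F test called 16 with the block. The share of all genes in that test is not given here, so this count is not read as a result about the members. The block ended no call of a member. Lamc3 against trimebutine did not pass without the filter (adjusted p = 0.0568), with an intensity trend (adjusted p = 0.0515) or with 2 groups only (adjusted p = 0.0832), and Itga10 against vehicle did not with 2 groups only (adjusted p = 0.0554). No called difference changed sign under any alternative run. The stricter filter removed members of low signal, so those have no value there.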
